A study of Mus musculus with 9 samples.

Results

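The genes described here act in lysosomal proteolysis and thyroglobulin uptake, and 9 of them were followed through the cells of the mouse thyroid. They were Ctsb, Ctsd, Ctsk, Ctsl and Ctss, which encode the cathepsins B, D, K, L and S, Lgmn, which encodes the protease legumain, Lamp1 and Lamp2, which encode the main membrane glycoproteins of the lysosome, and Lrp2, which encodes the endocytic receptor megalin. They were chosen by name as 9 of the 52636 gene identifiers in the deposited table, a rule that uses no measured value, although the set was drawn up with earlier results of these data known. All 9 were matched to an identifier, and their level in a cell label is given in CPM, the gene's UMIs (unique molecular identifiers, which count captured RNA molecules) per 1000000 UMIs of the cells summed.

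Thyroids came from male C57BL/6 mice, given in the labels as 10 to 12 weeks old in one place and 10 to 14 in another, each taken 7 days after 1 intraperitoneal antibody injection. The control group RW received anti-ragweed antibody at 40 mg/kg, the group aJ1aJ2 received anti-Jag1 and anti-Jag2 at 20 mg/kg each, and the group aN1aN2 received anti-Notch1 at 5 mg/kg with anti-Notch2 at 10 mg/kg. The antibodies were given systemically. Each group had 3 samples, every sample was a suspension pooled from 6 mice, and RNA was captured at its 3' end in droplets (10x Genomics, kit version v2). The 9 samples held 583 to 1805 cells and 3013324 to 11880793 UMIs, in 16 cell labels that the authors deposited. Median UMIs per cell were 2098 to 2237 in aN1aN2 and 2823 to 4149 in the other samples. The titles carry sample numbers in 3 ranges. The first range holds RW 3 and aJ1aJ2 1, the second holds the other RW and aJ1aJ2 samples, and the third holds the aN1aN2 samples alone, so receptor blockade and the third range cannot be told apart.

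Thyrocytes store thyroid hormone as iodinated thyroglobulin in the follicle lumen. To release hormone they take thyroglobulin up, partly through receptors of the megalin kind, and cut it with cathepsins and other proteases in the lumen and in lysosomes, whose membrane is lined by Lamp1 and Lamp2. Cathepsins are also abundant in phagocytes, where cathepsin S and legumain process antigens, and cathepsin K degrades collagen.

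The labels were checked against marker lists. In Th1 all 9 thyrocyte markers were detected in each RW sample, at 90824 to 98035 CPM summed, most of it from Tg alone. Th3 held thyrocyte markers at 62086 to 97894 CPM in RW, but also C cell markers at 36480 to 66164 CPM, against 425 to 1075 in Th1, so Th3 is not treated as pure thyrocytes. Label M carried the macrophage markers (11221 to 18202 CPM), F the fibroblast markers (31070 to 34451 CPM) and T1 the T and NK cell markers (2481 to 4467 CPM). EC1, EC2 and EC4 carried endothelial markers, and EC3 carried both endothelial (2542 to 3493 CPM) and mural markers (2617 to 4203 CPM). Libraries shared 15 barcodes, found in 30 of 10186 cells.

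The stretches of 250 bases before the start of Ctsd, Lamp1 and Lrp2 are shown because these members were lower in Th1 after receptor blockade and have an entry in the RefSeq table (GRCm38.p6). Capitals mark CACGTG, the core of the E-box element bound by factors of the Tfeb family, which drive many lysosomal genes. Each sequence is given 5′ to 3′ on its gene's strand, for Ctsd at chr7:142387828-142388077 (minus), for Lamp1 at chr8:13158911-13159160 (plus) and for Lrp2 at chr2:69586030-69586279 (minus).
Ctsd: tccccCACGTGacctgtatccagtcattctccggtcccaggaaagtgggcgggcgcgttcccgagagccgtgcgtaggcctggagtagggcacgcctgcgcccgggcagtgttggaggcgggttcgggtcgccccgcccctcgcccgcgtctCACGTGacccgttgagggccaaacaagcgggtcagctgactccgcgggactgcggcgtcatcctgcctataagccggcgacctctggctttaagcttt
Lamp1: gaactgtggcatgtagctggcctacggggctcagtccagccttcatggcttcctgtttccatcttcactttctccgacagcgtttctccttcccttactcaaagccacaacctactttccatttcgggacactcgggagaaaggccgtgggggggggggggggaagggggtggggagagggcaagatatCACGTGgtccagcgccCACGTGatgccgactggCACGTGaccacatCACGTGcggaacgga
Lrp2: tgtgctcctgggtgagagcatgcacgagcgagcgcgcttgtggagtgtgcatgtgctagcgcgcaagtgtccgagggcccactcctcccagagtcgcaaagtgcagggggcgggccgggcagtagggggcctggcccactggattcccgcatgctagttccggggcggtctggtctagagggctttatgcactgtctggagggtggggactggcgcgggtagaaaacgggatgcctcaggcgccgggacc

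CACGTG occurred 4 times in the Lamp1 window, the farthest 61 bases before the start, and 2 times in that of Ctsd, the farthest 245 bases before it. Of the 9 members, 8 had 9 windows in the table. Ctsl and 1 of the 2 starts of Lgmn had 1 match each, and Ctsk, Ctss, Lamp2, Lrp2 and the other start of Lgmn had none. The Ctsl start in the table lies 252 bases inside the span of its gene, so its window overlaps the gene. The Lgmn window with the match, chr12:102439093-102439342, also lies inside its gene. Ctsb is not in the table. Of all 32851 windows of this length, 6.02% held CACGTG, which reads the same on both strands. GTGGGAA, a form of the element bound by the Notch effector Rbpj, was searched on both strands. It was in 5.42% of all windows and in none of those of these genes. These matches describe the letters in the window and not binding.

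In the control thyroid the 9 genes had different patterns over the labels. The proteases Ctsb, Ctsd and Ctsl were present in thyrocytes, fibroblasts, endothelial cells and macrophages. Ctss and Lgmn were highest in the macrophage label, Ctsk in the fibroblast label, and Lrp2 in the thyrocyte label and the small parathyroid label. Lamp1 and Lamp2 were spread over nearly all nucleated cells. Levels over labels are means ± SD over the RW samples with at least 20 cells of the label, and labels are compared by whether their samples overlap, with no test.

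Ctsb (ENSMUSG00000021939, chromosome 14, 63122462 to 63145923 in GRCm38) encodes a cysteine protease that cuts proteins from within and from the carboxyl end. It was 2143 ± 742 CPM in M (n = 3), 593 ± 105 in F, 590.2 ± 22.7 in Th3 and 568 ± 42.4 in Th1. M lay above the others with no overlap, and the ranges of F, Th3 and Th1 overlapped. Th1, whose cells had a median of 12553 UMIs over all groups, held 57.5% of all Ctsb UMIs of the RW samples, and M, with a median of 1192 UMIs, held 13.5%.

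Ctsd (ENSMUSG00000007891, chromosome 7, 142375910 to 142387827) encodes an aspartic protease. Its level was 828 ± 114 CPM in Th3 and 767 ± 40.5 in Th1 (n = 3 each), with M next at 567 ± 393. These 3 labels overlapped, and M spread from 261 to 1011 CPM over its samples.

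Ctsl (ENSMUSG00000021477, chromosome 13, 64361890 to 64370772) encodes a cysteine protease that also matures other cathepsins. It was highest in F, at 1521 ± 121 CPM, followed by Th3 at 1214 ± 65.3 and Th1 at 1104 ± 70.6 (n = 3 each). F did not overlap Th3, whereas Th3 and Th1 overlapped. EC1 had 625 ± 79.4 CPM, below Th1 in every sample.

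Ctsk (ENSMUSG00000028111) and Ctss (ENSMUSG00000038642) lie side by side on chromosome 3 on the plus strand, at 95499210 to 95509387 and 95526786 to 95556405, with 17398 bases between them. Ctsk was a fibroblast transcript here, at 248 ± 93.7 CPM in F (n = 3), which held 91.1% of its RW UMIs. In no other label did its mean reach 14 CPM, and Th1 held 3 Ctsk UMIs over the 3 RW samples together. Ctss, its neighbour, was at 3626 ± 1396 CPM in M and 108 ± 38.5 in T1 (n = 3 each), and not detected in F, where 0 UMIs allow up to 3.17 CPM. M held 80.2% of the Ctss UMIs of the RW samples.

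Lgmn (ENSMUSG00000021190, chromosome 12, 102394082 to 102439728) encodes an asparagine-specific protease. It was 695 ± 51.9 CPM in M (n = 3), 159 ± 56.5 in S (n = 2), the label with Schwann cell markers, and 91.9 ± 16.7 in EC3. These 3 labels did not overlap each other. Th1 had 30.5 ± 2.22 CPM.

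Lamp1 (ENSMUSG00000031447, chromosome 8, 13159161 to 13175338) had nearly the same level in many labels, from 644 ± 92.4 CPM in F to 567 ± 27.2 in Th1 and 481 ± 59.2 in EC1 (n = 3 each), and the ranges of F, S and M overlapped. Lamp2 (ENSMUSG00000016534, chromosome X, 38399647 to 38456460), whose product also serves chaperone-mediated autophagy, had its highest level in F, at 453 ± 40.3 CPM, followed by Th1 at 329 ± 17.5, with no overlap between them. T1 was low for both genes, with 121 ± 1.46 CPM of Lamp1 and 28.0 ± 6.31 of Lamp2.

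Lrp2 (ENSMUSG00000027070, chromosome 2, 69424335 to 69586029) was 54.0 ± 3.19 CPM in Th1 (n = 3), which held 91.5% of its RW UMIs. In Th3 it was 58.7, 0 and 10.2 CPM in RW 1, 2 and 3, resting on 22 UMIs in all. EC1 had 0 Lrp2 UMIs among 5128268, which allows up to 0.585 CPM. Thyrocyte markers summed to 713 to 988 CPM in its RW samples, a small part of their sum in Th1. At that share of its Th1 level Lrp2 would lie near this limit, so the 0 cannot be set against the markers. Beside Th1 and Th3, the only label with more than 2 Lrp2 UMIs in RW was P, with 28. P was marked by parathyroid genes (452786 CPM of 3 markers in the aN1aN2 2 sample). P had fewer than 20 cells in each RW sample, with 69.2 CPM of Lrp2 in 6 cells of RW 1 and 52.1 in 9 cells of RW 3, and 59.4 CPM in 22 cells of aN1aN2 2.

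**Figure D1:**
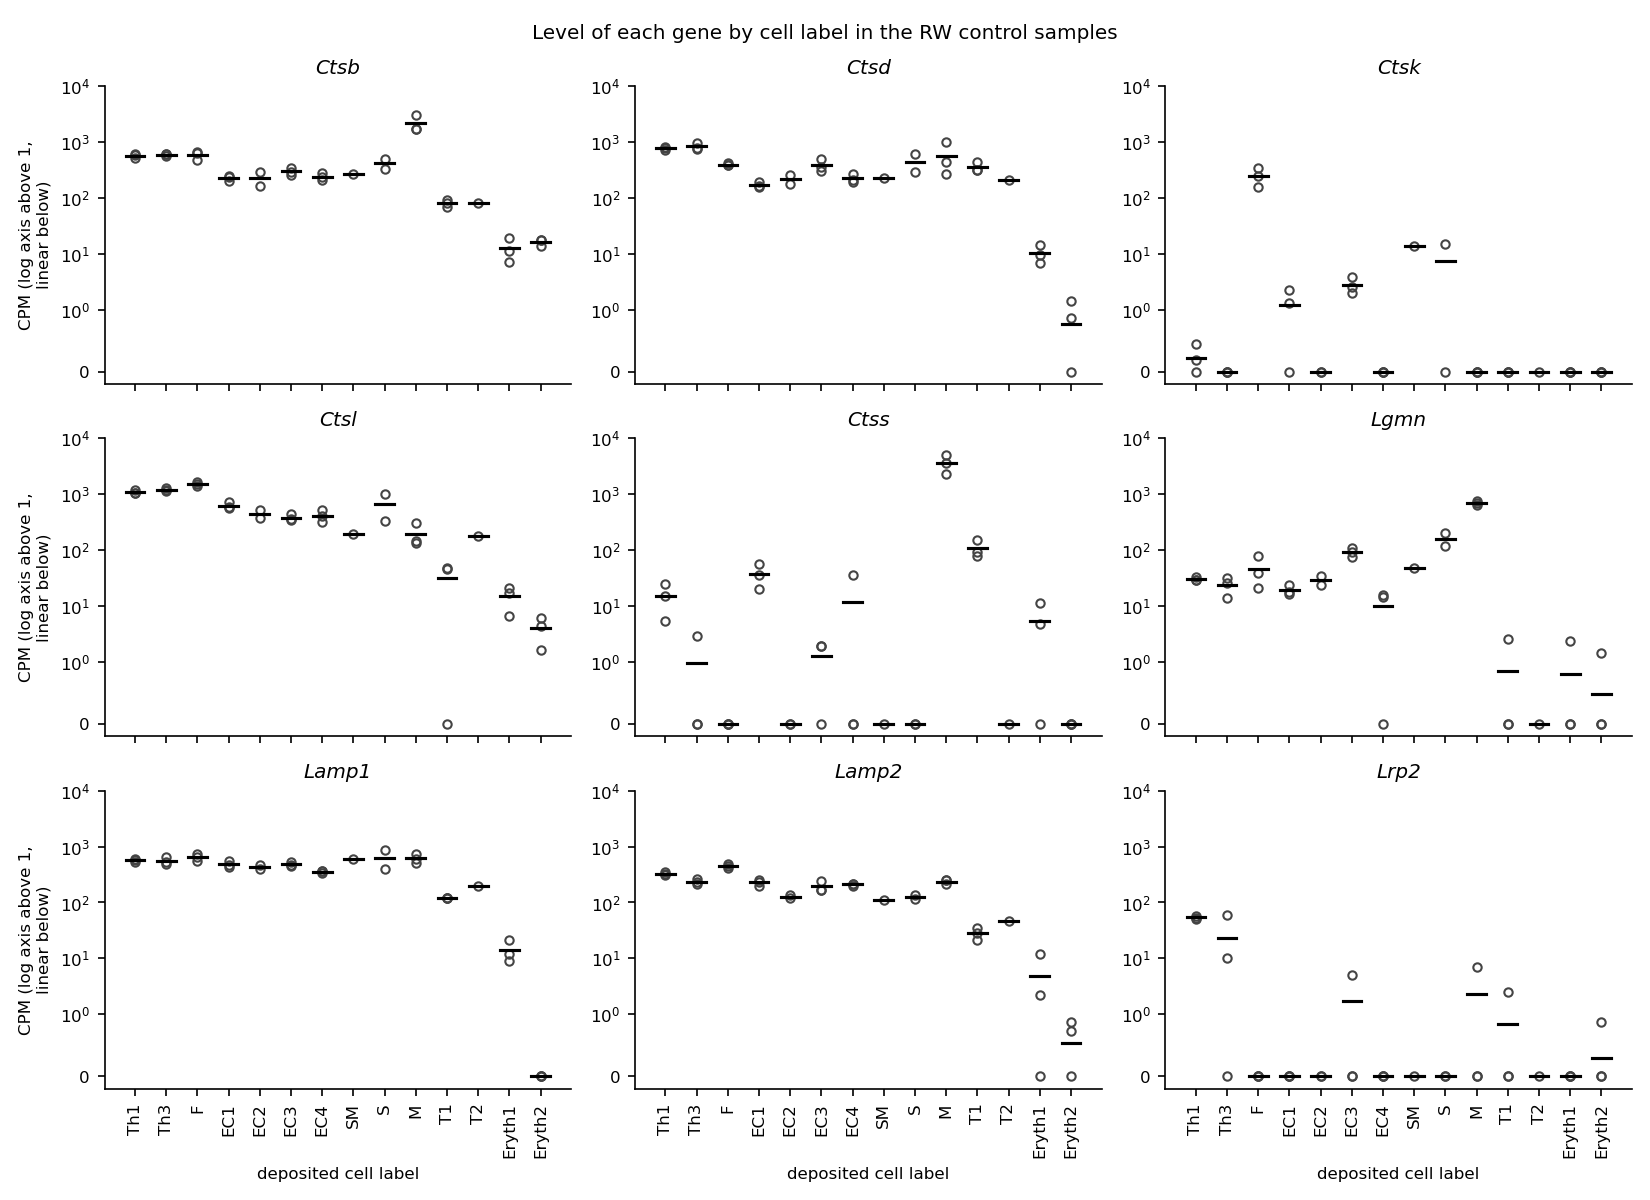
Level of each of the 9 genes in the RW samples, by deposited cell label. Each open circle is 1 sample with at least 20 cells of the label, the line is the mean, and the vertical axis is in CPM, logarithmic above 1 and linear below. Ctsk stands out in F, Ctss and Lgmn in M, and Lrp2 in Th1 and Th3, while Lamp1 and Lamp2 are spread over the labels outside T1, T2, Eryth1 and Eryth2.

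The genes whose level followed a member most closely over the 16 labels in RW were found among 8081 genes by Pearson's r of log2 CPM. Here the RW samples of a label were pooled, with no minimum of cells, so small labels such as P count as well. It is a description with no test, since the labels share libraries and depth. Ctss was most like Tyrobp (r = 0.97), Cyp4f18 and Cx3cr1, and Ctsk most like Igsf10 (r = 0.98), C1qtnf7 and Cyp1b1. Ctsl was most like another member, Lamp2 (r = 0.96), then Aldh2 and Sqstm1. For Ctsd the nearest were Ssr1 (r = 0.97), Rtcb and Snd1. Lamp1 was nearest to Clta (r = 0.98), Smim19 and Anapc11, and Lamp2 to Nfe2l2 (r = 0.97), Xbp1 and Rab1a. Lgmn had looser matches, with Rassf4 (r = 0.88), Abhd12 and Cdk14, and Lrp2 was nearest to 2610528J11Rik (r = 0.95), Capsl and Gm16136.

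The first comparison asked what blockade of Notch1 and Notch2 did to these genes in thyrocytes. In Th1 of aN1aN2, Ctsb, Ctsd, Lamp1 and Lrp2 fell and Ctsl rose against RW, while Lamp2, Lgmn and Ctss did not pass the test. Of the 9 members, 8 passed the filter on low counts, and Ctsk, with 3 UMIs in RW and 2 in aN1aN2, did not. Of these 8, 1 was called higher and 4 lower in edgeR's quasi-likelihood test (Benjamini-Hochberg adjusted p under 0.05 over 10627 genes). Of all genes tested, 34.4% were called, 17.1% higher and 17.3% lower, and the median log2 change was 0.02 over all genes and -0.45 over the 8 members. Fewer transcripts per cell and a different mix of cells within the label cannot be told apart in such sums.

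Ctsb was 586, 519.6 and 598 CPM in Th1 of RW 1, 2 and 3, and 346, 330.0 and 367 in aN1aN2 1, 2 and 3. Every aN1aN2 sample was below every RW sample. The log2 change was -0.71 ± 0.12 (SE, adjusted p = 0.000362, edgeR, lower in 3 of 3 samples), the largest fall among the called members. Ctsd was 771, 805 and 724 CPM in RW and 541, 563 and 582 in aN1aN2, a log2 change of -0.44 ± 0.12 (SE, adjusted p = 0.0121). These groups did not overlap either, but the Ctsd call was lost without aN1aN2 1 (adjusted p = 0.0628) or aN1aN2 2 (adjusted p = 0.0536).

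Ctsl moved the other way. It was 1061, 1065 and 1186 CPM in Th1 of RW and 1372, 1361 and 1256 in aN1aN2, with all 3 aN1aN2 samples above the RW samples. The log2 change was 0.27 ± 0.09 (SE, adjusted p = 0.0317), and 7 of 15 alternatives ended the call, with adjusted p between 0.0671 and 0.180, among them leaving out RW 1, RW 2, aN1aN2 1 or aN1aN2 2. Lgmn was 29.1, 29.4 and 33.1 CPM in RW and 38.3, 35.7 and 45.8 in aN1aN2, without overlap, but its log2 change of 0.35 ± 0.15 (SE) had an adjusted p of 0.0855.

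Of the membrane proteins, Lamp1 was 589, 536 and 575 CPM in Th1 of RW and 413, 422 and 408 in aN1aN2. The aN1aN2 samples lay close together and below all RW samples, with a log2 change of -0.45 ± 0.10 (SE, adjusted p = 0.0032). Lamp2 was 347, 327 and 313 CPM in RW against 311, 302 and 252, where 2 aN1aN2 samples lay just under the lowest RW sample, and the log2 change of -0.18 ± 0.10 (SE) had an adjusted p of 0.158.

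The receptor gene Lrp2 was 53.7, 57.4 and 51.0 CPM in Th1 of RW and 39.4, 33.2 and 41.3 in aN1aN2. The groups did not overlap, and the log2 change was -0.51 ± 0.14 (SE, adjusted p = 0.00956). Leaving out aN1aN2 2 ended the Lrp2 call (adjusted p = 0.0742).

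The aN1aN2 samples also differed in depth and in traces of other cells in Th1. Median UMIs per Th1 cell were 5737 to 7558 in aN1aN2 and 12535 to 22558 in RW, and the part of depth in these results was not tested. In Th1 the 7 macrophage markers had a summed level of 45.4 to 108 CPM over the RW samples, with 6 to 7 of them detected. In aN1aN2 it was 1.85 to 75.6 CPM, with 1 to 6 detected. Th1 cells with a UMI of such a marker were 64 of 425 in RW and 14 of 348 in aN1aN2, and they were deeper than the others, with medians of 37796 against 15348 UMIs in RW and 27254 against 6148 in aN1aN2. In RW they held 24.9% of the Ctsb UMIs and similar shares of Ctsd (22.9%), Lamp1 (26.2%) and Lrp2 (24.4%). The shares of Ctsl (22.2%), Lamp2 (25.2%) and Lgmn (30.5%) were also near these. The share of all UMIs that these deeper cells held was not taken. In aN1aN2 the shares were 9.82% for Ctsb, 8.30% for Ctsd, 9.86% for Lamp1 and 12.96% for Lrp2. Without these cells the log2 change of Ctsb was -0.75 ± 0.11 (SE, adjusted p = 6.8e-05), and Ctsd, Lamp1 and Lrp2 were still called lower, while Ctsl was not called (adjusted p = 0.0671). C cell markers were 1013 to 1837 CPM in Th1 of aN1aN2 against 425 to 1075 in RW, and their part was not tested.

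Blockade of the ligands gave no call among the same 8 genes in Th1, where 0.612% of all genes were called. DESeq2 also called 0. At an unadjusted p under 0.05 there were 3 (Ctsb, Ctsd and Ctsl), and 1310 of all 10627 genes. Ctsb was 521, 435 and 425 CPM in aJ1aJ2 1, 3 and 4, a log2 change of -0.31 ± 0.12 (SE, adjusted p = 0.291, edgeR), and Ctsd was 733, 542 and 595 CPM, -0.30 ± 0.12 (SE, adjusted p = 0.332). For both genes aJ1aJ2 1 was the highest sample of its group and aJ1aJ2 3 and 4 lay below all RW samples. Without aJ1aJ2 1 both were called lower (log2 change -0.45 and adjusted p = 0.0239 for Ctsb, -0.48 and 0.0109 for Ctsd). Within the second title range alone they were also called (-0.40 and 0.0182 for Ctsb, -0.51 and 0.00278 for Ctsd). In the first range, of 1 sample each, Ctsb was 598 CPM in RW 3 and 521 in aJ1aJ2 1, and Ctsd 724 and 733.

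The other members had small differences after ligand blockade. Ctsl was 927, 947 and 1030.0 CPM in Th1 of aJ1aJ2, below every RW sample (log2 change -0.20 ± 0.09, SE, adjusted p = 0.376). Lamp1 was 534, 478 and 465 CPM (-0.21 ± 0.10, adjusted p = 0.417), and Lrp2 49.7, 46.9 and 48.7 CPM (-0.16 ± 0.12, adjusted p = 0.647), both below every RW sample. Lamp2 was 300, 299 and 310.1 CPM and Lgmn 34.8, 32.9 and 36.7 CPM, neither called.

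Set directly against each other in Th1, the blockades differed for Ctsb and Ctsl. Of the 8 members, 2 were called, against 22.3% of all genes. Ctsl was higher in aN1aN2 than in aJ1aJ2 by 0.47 ± 0.09 on the log2 scale (SE, adjusted p = 0.00181), with no overlap and on opposite sides of RW. Ctsb was lower in aN1aN2 by a log2 difference of -0.40 ± 0.12 (SE, adjusted p = 0.0274). For Ctsd the difference was -0.14 ± 0.13 (SE, adjusted p = 0.467), and for Lrp2 -0.35 ± 0.14 (SE, adjusted p = 0.0917). The Ctsb difference was not called without aJ1aJ2 1, aN1aN2 1 or aN1aN2 2. Both blockades were compared with the same RW samples.

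**Figure D2:**
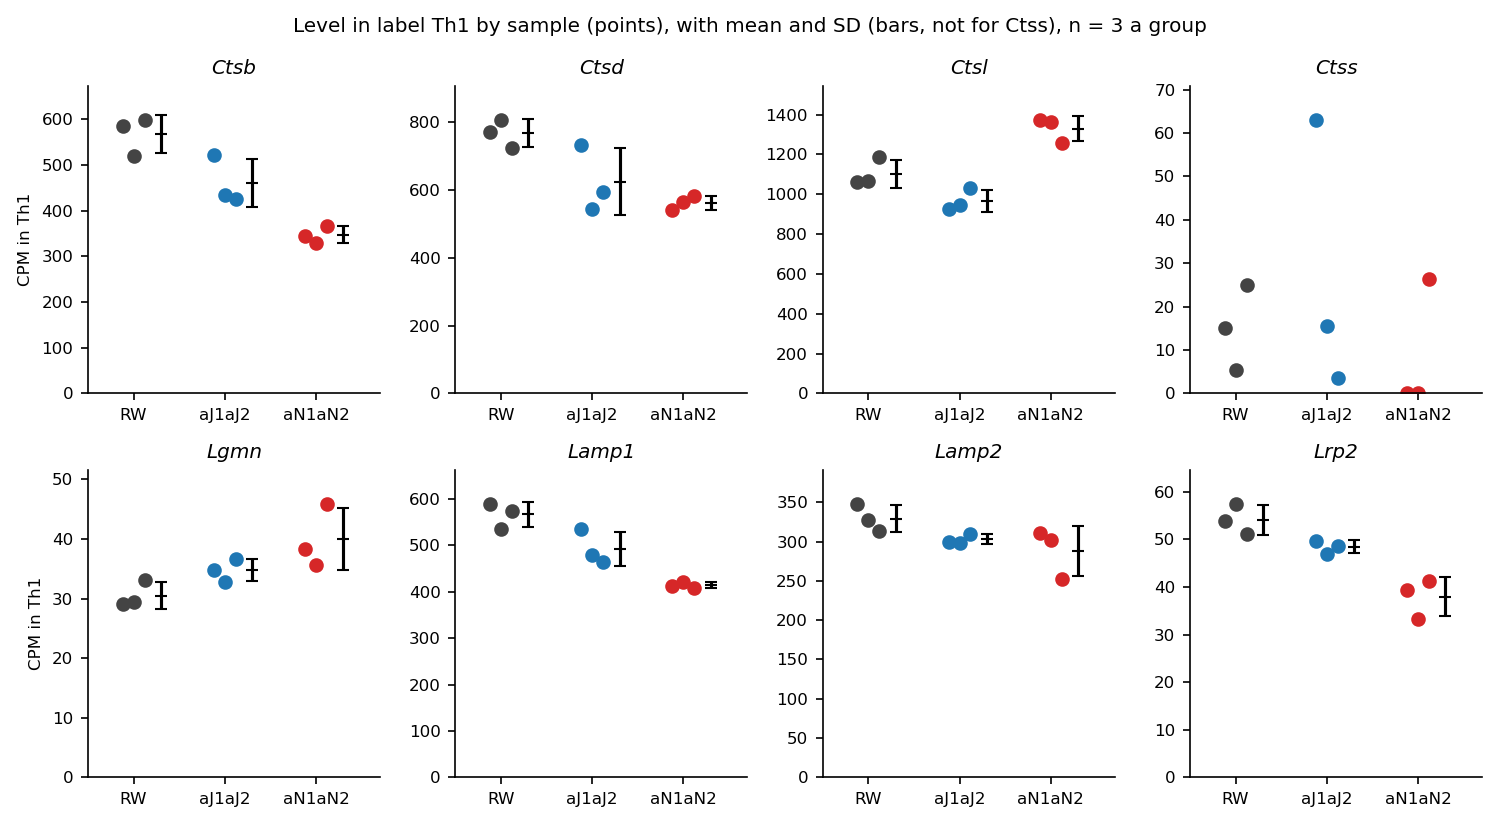
Level of 8 of the genes in label Th1, in CPM from 0, by antibody group. Each point is 1 sample, and the bar beside the points is the mean with its SD (n = 3, not drawn for Ctss). The aN1aN2 points of Ctsb, Ctsd, Lamp1 and Lrp2 all lie below the RW points, those of Ctsl above, and Ctss is scattered in every group.

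Ctsl was higher in aN1aN2 than in RW in 4 labels beside Th1, of endothelial cells and fibroblasts. Over the 8 other labels that could be tested for aN1aN2, 36 of 72 pairs of member and label passed the filter and 9 were called, 4 of them Ctsl. The share of all genes called was 17.8% in EC1, 15.5% in EC2, 5.91% in EC3, 21.1% in EC4, 19.8% in F, 5.03% in Th3, 7.69% in Eryth1 and 8.6% in Eryth2. In EC1 Ctsl was 597, 563 and 714 CPM in RW and 1144, 1257 and 1225 in aN1aN2 (log2 change 0.92 ± 0.11, SE, adjusted p = 4.27e-06). In EC4 it was 409, 322 and 515 CPM in RW and 1419, 1202 and 1251 in aN1aN2 (1.53 ± 0.22, SE, adjusted p = 8.11e-06). In both labels every aN1aN2 sample was above every RW sample.

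Fibroblasts and EC2 gave the same direction for Ctsl. In F the values were 1402, 1517 and 1643 CPM in RW and 2362, 3096 and 2269.9 in aN1aN2 (log2 change 0.79 ± 0.18, SE, adjusted p = 0.00382). In EC2, where only RW 1 and RW 2 had 20 cells, Ctsl was 522 and 368 CPM in RW and 923, 1408 and 1635 in aN1aN2 (1.51 ± 0.25, SE, adjusted p = 0.000807). These 4 Ctsl calls were kept in every alternative run. The rise was not seen in EC3, where Ctsl was 341, 447 and 357 CPM in RW and 371, 236 and 389.9 in aN1aN2 (-0.17 ± 0.24, SE, adjusted p = 0.761), nor called in Th3, where the aN1aN2 samples spread from 592 to 1742 CPM.

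Under ligand blockade Ctsl did not pass the test in any label. In S its log2 change was 0.32 (adjusted p = 0.862), but it was called higher with the title range as a term (1.16, adjusted p = 0.00129) and within the second range or without RW 3 (1.22, adjusted p = 0.000558). In each of these RW 1 alone sets the RW level, since RW 3 is the only S sample of its range. Its levels in EC1 were 681, 698 and 691 CPM (log2 change 0.12 ± 0.11, SE, adjusted p = 0.734) and in F 1712, 1479.6 and 1642 CPM (0.09 ± 0.18, SE, adjusted p = 0.947). Values beside this result moved with the group too. Median UMIs per cell in EC1 were 2518 to 3534 in aN1aN2 against 4679 to 4968 in RW, and thyrocyte markers in EC1 were 1332 to 1946 CPM in aN1aN2 against 713 to 988 in RW. In EC4 the median share of mitochondrial UMIs was 4.80 to 6.18% in aN1aN2 and 9.27 to 13.9% in RW. The part of depth, thyrocyte RNA and mitochondrial share in the result was not tested.

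**Figure D3:**
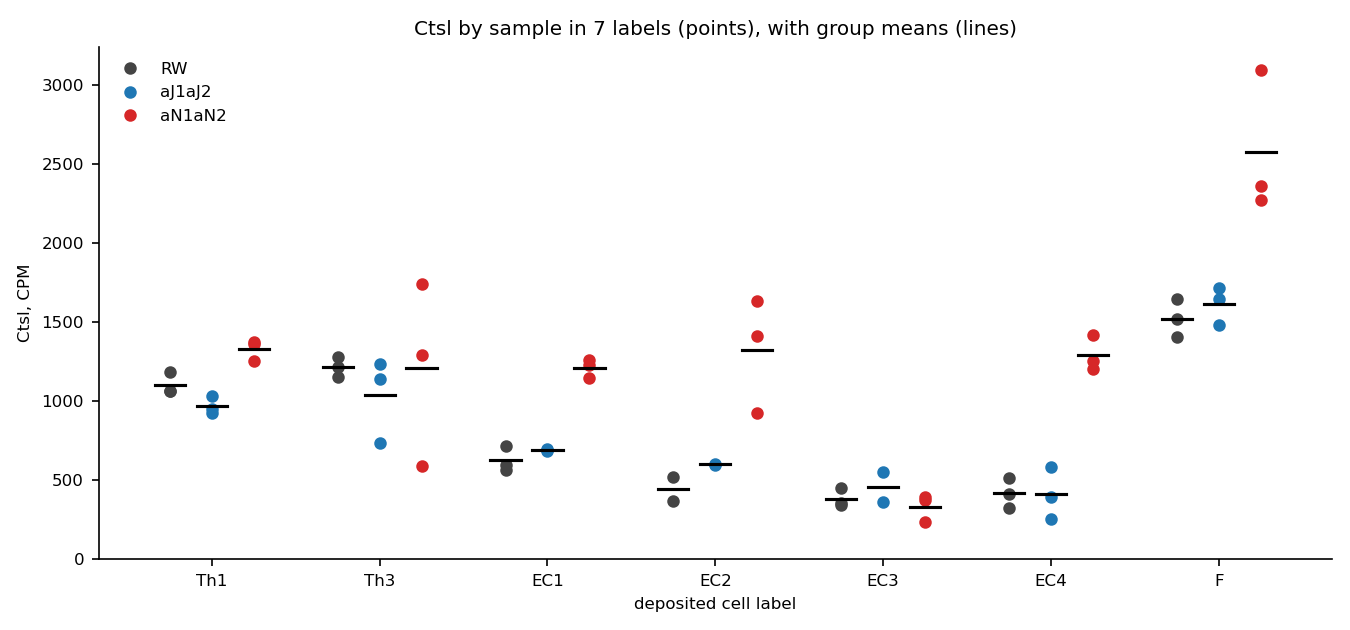
Ctsl in 7 labels, in CPM from 0, by antibody group. Each point is 1 sample with at least 20 cells of the label, and the line is the group mean. The aN1aN2 points lie above all RW points in Th1, EC1, EC2, EC4 and F, and overlap them in Th3 and EC3.

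Beside Ctsl and Ctss, the members called outside Th1 after receptor blockade were Lamp1 in EC1, Ctsd in EC2 and EC3, and Lamp2 in EC2. Lamp1 fell in EC1, from 469, 429 and 546 CPM in RW to 370.1, 347 and 364 (log2 change -0.45 ± 0.13, SE, adjusted p = 0.0149), a call lost without RW 3 (adjusted p = 0.0615) or aN1aN2 2 (adjusted p = 0.072). In F Lamp1 was 548, 652 and 732 CPM in RW and 462, 428 and 411 in aN1aN2, without overlap but not called (adjusted p = 0.0519, and 0.0372 to 0.0457 in the 3 alternatives that called it). Ctsb in Th3 just missed the threshold and was called lower by DESeq2 (adjusted p = 0.012), with DESeq2's size factors (0.0485) and with equal cell numbers (0.0473). It was 601, 564 and 605 CPM in RW and 265, 132 and 349.9 in aN1aN2 (-1.19 ± 0.30, SE, adjusted p = 0.0506), beside C cell markers that were 716 to 10491 CPM in aN1aN2 against 36480 to 66164 in RW, whose part was not tested.

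Ctsd was called higher in EC2 and in EC3, the label with both endothelial and mural markers. In EC2 it was 252 and 179.9 CPM in RW and 397, 425 and 369.9 in aN1aN2 (log2 change 0.83 ± 0.25, SE, adjusted p = 0.0354), and the aJ1aJ2 samples, at 466 and 339 CPM, missed the threshold at a similar size (0.87 ± 0.23, SE, adjusted p = 0.0643). In EC3 Ctsd was 351, 300.4 and 497 CPM in RW and 472, 909 and 681 in aN1aN2, overlapping (0.89 ± 0.24, SE, adjusted p = 0.0378). Lamp2 in EC2 was 119 and 137 CPM in RW and 354, 169.9 and 234 in aN1aN2 (1.01 ± 0.33, SE, adjusted p = 0.0493). These 3 calls were lost in 6 of 14, 9 of 15 and 10 of 14 alternatives.

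The changes in other labels were also set against those in Th1 in one fit, where the difference of the change itself was tested. In EC1, 3 members differed from Th1 (Ctsb, Ctsd and Ctsl), against 11.9% of all genes. In EC2 the members that differed were Ctsd, Ctsl and Lamp2 (11.1% of all genes), in EC3 Ctsd (6.23%), in EC4 Ctsl (13.7%) and in F Ctsb and Ctsl (13.3%). No member differed in Th3, where 0% of all genes did. Ctsb, which fell in Th1, was 235, 198 and 249 CPM in EC1 of RW and 239.9, 203 and 244 in aN1aN2, with wholly overlapping groups.

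**Figure D4:**
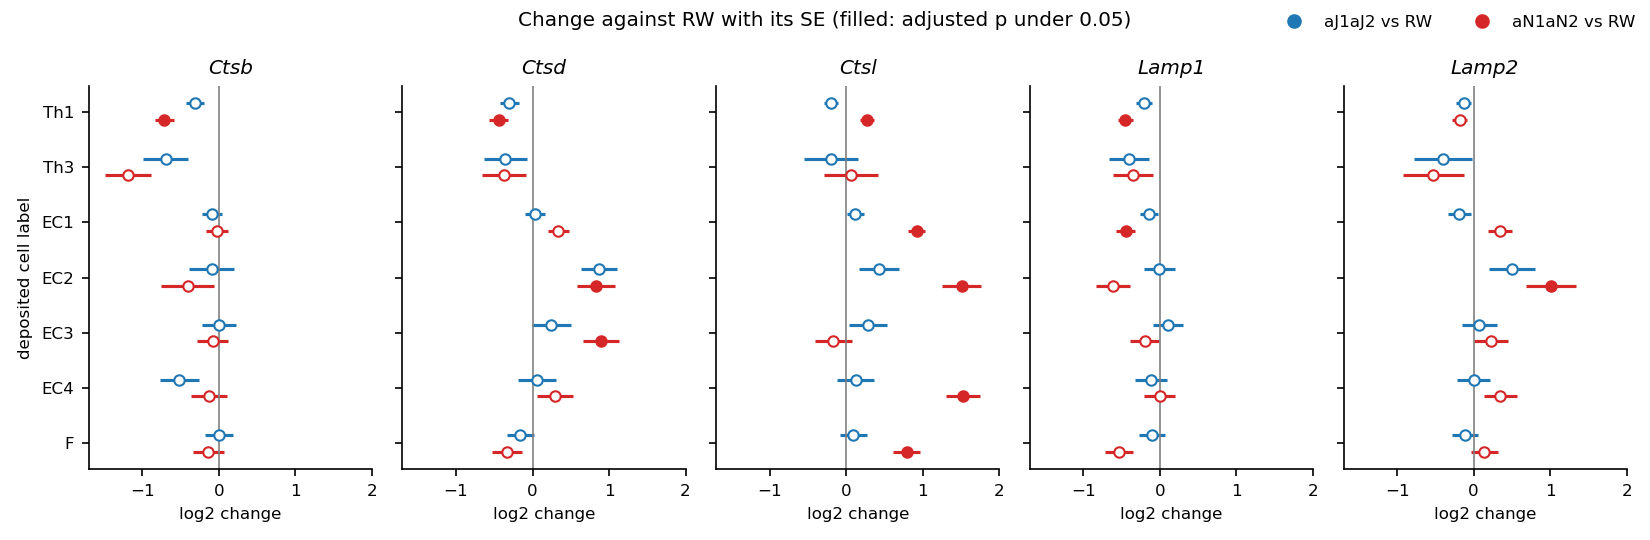
Log2 change against RW of 5 genes in 7 labels, for aJ1aJ2 (blue) and aN1aN2 (red). Points are edgeR estimates, bars their SE, and filled points have an adjusted p under 0.05. The filled red points of Ctsl lie to the right of 0 in Th1, EC1, EC2, EC4 and F, and those of Ctsb, Ctsd and Lamp1 to the left of 0 in Th1.

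Ctss gave the only member call outside Th1 after ligand blockade, of 53 pairs of member and label that passed the filter in 11 labels. The share of all genes called for aJ1aJ2 was 1.43% in EC1, 1.91% in EC2, 0.0618% in EC3, 0.903% in EC4, 0.579% in F, 0.358% in Eryth2 and 0% in M, S, T1, Th3 and Eryth1. In EC1 Ctss was 36.4, 20.2 and 55.5 CPM in RW, 8.17, 6.35 and 7.28 in aJ1aJ2 and 0, 2.67 and 0 in aN1aN2, with no overlap between the 3 groups. The log2 change under ligand blockade was -2.47 ± 0.36 (SE, adjusted p = 0.00086). Receptor blockade left 1 UMI where RW had 208, and the pooled level per UMI was 45.8-fold higher in RW (95% exact counting interval 8.12 to 1816). In edgeR's test the log2 change was -5.31 ± 0.82 (SE, adjusted p = 6.92e-05). This size is uncertain, since it was -4.68 without aN1aN2 1 and -8.55 without aN1aN2 2, the only aN1aN2 sample with a UMI, a fitted value that is no bound.

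Nearly all of this Ctss lay in cells with a UMI of a macrophage marker. In EC1 of RW, 45 of 661 cells had a UMI of a macrophage marker, and they held 206 of the 208 Ctss UMIs. Their median depth was 13410 UMIs, against 4723 in the other EC1 cells. In aJ1aJ2 such cells were 27 of 678 and held 23 of 26 Ctss UMIs, and in aN1aN2 they were 3 of 264. The macrophage markers summed to 83.0 to 219 CPM in EC1 of RW, 26.5 to 88.2 in aJ1aJ2 and 0 to 9.49 in aN1aN2, with 6 to 7, 5 to 7 and 0 to 3 of the 7 detected. RW and aJ1aJ2 overlapped only through Mrc1 in aJ1aJ2 3, which had 78 UMIs (49.5 of its 88.2 CPM), against at most 1 Mrc1 UMI in any other EC1 sample. Without Mrc1, the other 6 markers summed to 83.0 to 218 CPM in RW and 25.8 to 42.5 in aJ1aJ2, with no overlap. Without these cells Ctss did not pass the filter on low counts in EC1 or Th1.

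The ratio of Ctss to macrophage-marker UMIs in RW was 0.227 in M, 0.265 in EC1 and 0.232 in Th1, where the markers had 9007, 785 and 891 UMIs. The other labels with any marker UMI had 2 to 21 of them, and their ratios ran from 0, as in F and S, over 0.0952 in EC3, 0.333 in EC4 and 0.875 in Eryth1 to 8.75 in T1. In aJ1aJ2 the ratio was 0.127 in EC1, 0.199 in M and 0.253 in Th1, and with Mrc1 left out of the markers it was 0.206, 0.208 and 0.255. In T1 of RW none of the 70 Ctss UMIs were in a cell with a macrophage marker. In Th1 Ctss was 15.1, 5.34 and 25 CPM in RW, 63.0, 15.5 and 3.61 in aJ1aJ2 and 0, 0 and 26.4 in aN1aN2, scattered within each group and not called. Here too, cells with a macrophage marker held 200 of 207 Ctss UMIs in RW, 193 of 195 in aJ1aJ2 and 22 of 23 in aN1aN2.

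**Figure D5:**
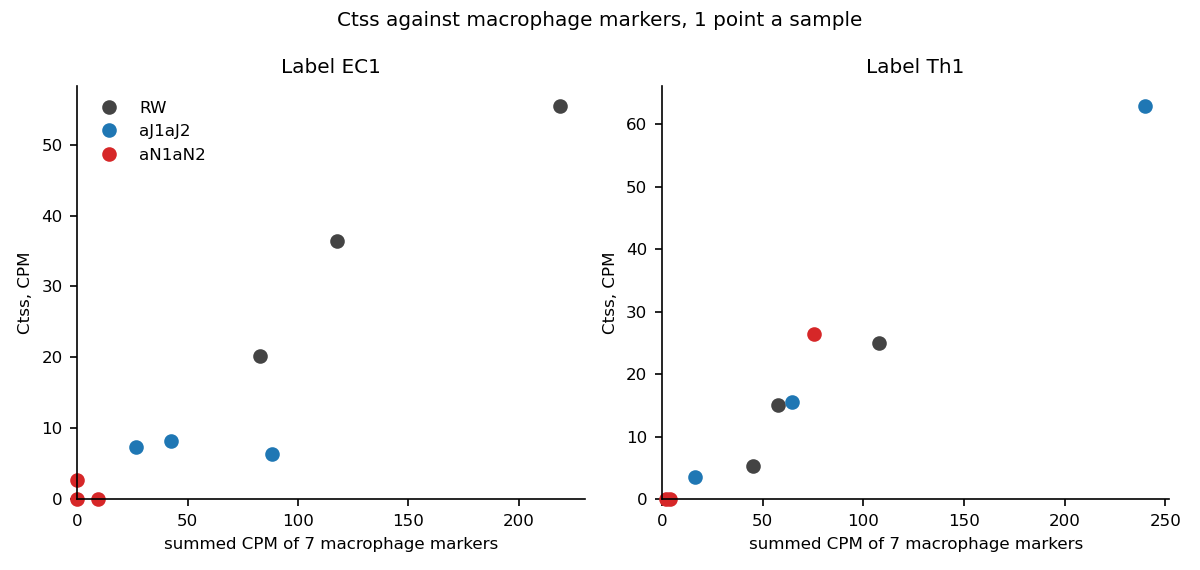
Ctss level against the summed level of 7 macrophage markers, both in CPM from 0, in EC1 (left) and Th1 (right). Each point is 1 sample, and colours are the antibody groups. In EC1 the RW samples have the most Ctss and the aN1aN2 samples the least of both, while RW and aJ1aJ2 overlap in the markers through Mrc1 in aJ1aJ2 3, and in Th1 the sample aJ1aJ2 1 has the most of both, at 63.0 CPM of Ctss.

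Within the macrophage label itself, Ctss was 3563, 2263 and 5052 CPM in RW and 2998, 2169.7 and 2469 in aJ1aJ2, overlapping groups that were not called, as were Ctsb (1703, 2999.6 and 1726 against 1731, 1406 and 1272) and Lgmn (744, 641 and 702 against 685, 503 and 484). M had 9, 3 and 10 cells in the aN1aN2 samples and was not tested there. Ctsk in fibroblasts was 242, 157 and 344 CPM in RW, 213, 256 and 229 in aJ1aJ2 and 293, 211 and 234 in aN1aN2, with overlapping groups and log2 changes of -0.04 ± 0.23 and 0.06 ± 0.26 (SE).

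The other genes of the pathway were read in Th1 from 8 lists with 95 genes tested. Under receptor blockade 34 of them were called (35.8%, against 34.4% of all genes), 7.37% higher and 28.4% lower, against 17.1% and 17.3% of all genes. Under ligand blockade 2 were called (2.11%, against 0.612%). Of 10 other lysosomal proteases tested, 2 rose (20%, against 17.1% of all genes) and 4 fell (40%, against 17.3%) in aN1aN2, with a list median of -0.24 against 0.02 over all genes. The carboxypeptidase gene Cpq fell (log2 change -1.14 ± 0.11, SE, adjusted p = 1.27e-06), as did Ctsc, cathepsin C (-0.75), while Prcp (0.82) and Ctsf, cathepsin F (0.80), rose. Among 6 protease inhibitors, 1 rose (16.7%) and 3 fell (50%), with a median of -0.23. They were the cystatins Cst6 (-2.08 ± 0.24, adjusted p = 1.09e-05), Cst3 (-0.79) and Cstb (-0.71), which inhibit cysteine cathepsins, against a rise of Serpinb6a (0.51).

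Among 27 lysosomal hydrolases other than proteases, 7 fell (25.9%, against 17.3% of all genes) and none rose (median -0.16). Among those that fell were Gusb, the beta-glucuronidase gene (-1.40), Man2b1 (-0.94) and Naglu (-0.91). Of 14 subunits of the vacuolar proton pump that acidifies lysosomes, 6 fell (42.9%, against 17.3% of all genes) and none rose (median -0.29), led by Atp6v1c1 (-0.80 ± 0.12, adjusted p = 0.000136), Atp6v1h (-0.49), Atp6v0e (-0.45) and Atp6v1d (-0.44). Of 15 other lysosomal membrane proteins tested, 12 were not called, 3 rose (20.0%, against 17.1% of all genes) and none fell (median 0.31). Those that rose were the amino acid sensor Slc38a9 (1.14), Scarb2 (0.87), and the sialic acid exporter Slc17a5 (0.80).

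Of 14 endocytic and sorting receptors and partners, 1 rose (7.14%, against 17.1% of all genes) and 4 fell (28.6%, against 17.3%), with a median of -0.02. Asgr1, a subunit of the asialoglycoprotein receptor, was called lower under both blockades, with log2 changes of -2.10 ± 0.13 (SE, adjusted p = 2.77e-08) in aN1aN2 and -0.76 ± 0.12 (SE, adjusted p = 0.0109) in aJ1aJ2. The aJ1aJ2 call was lost without RW 2 (adjusted p = 0.0749), aJ1aJ2 3 (0.0917) or aJ1aJ2 4 (0.0615). The other called genes under receptor blockade were Gnptg (-0.58), Lrpap1 (-0.53), the chaperone of megalin and its relatives, and Cltc (-0.34), with Rab11a higher (0.30). None of the 3 tested regulators of lysosomal genes was called (median -0.14).

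Of 6 genes of thyroglobulin and hormone release, 3 fell in aN1aN2 (50%, against 17.3% of all genes) and none rose (median -0.90). They were Dio1, a deiodinase (-1.61 ± 0.14, SE, adjusted p = 5.96e-07), Tshr, the thyrotropin receptor (-1.47 ± 0.19, adjusted p = 3.42e-05), and Iyd, which recovers iodide (-1.42 ± 0.11, adjusted p = 1.54e-07). Tshr was also called in aJ1aJ2 (-0.93 ± 0.17, adjusted p = 0.0235), a call lost without RW 1, RW 2, aJ1aJ2 3 or aJ1aJ2 4 (adjusted p = 0.0879 to 0.180) and with only the compared groups (0.0829). Tg, the substrate itself, named here after its values were seen, was 91403, 94020.1 and 86954 CPM in RW and 95941, 100531 and 111727 in aN1aN2 (log2 change 0.19 ± 0.13, SE, adjusted p = 0.305).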

How the data were processed

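The authors deposited a table of raw UMI counts per gene and cell and a table of cell labels. Per the submitters' processing notes, Cell Ranger and the GRCm38 genome were used, and how the labels were made is not given in the sources used here. In 2619 annotation lines shifted columns were set right. Symbols were matched for 52403 of 52636 identifiers.

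Counts were summed per sample and label (sums of at least 20 cells) and tested with edgeR 4.0.16 (quasi-likelihood, filterByExpr, TMM) in R 4.3.3, in one fit of all 9 samples with 3 group means, adjusted by Benjamini-Hochberg over all genes of a label, where at least 2 samples of each group remained. Levels are CPM without TMM. Doublets were not removed here, and free RNA was not subtracted. The replicate is a pool of mice. In Th1, replicates differed beyond sampling noise (chi-square per degree of freedom 1.66 to 8.08). Intervals and limits from 0 UMIs (3 counts) cover counting error only. Tested on simulated data for Th1 (10627 genes), the fit recovered 45, 30, 40 and 50 of 50 genes changed by -2, -1, 1 and 2 on the log2 scale, with 3 false calls.

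The 9 genes and all lists were chosen with earlier results of these data known. The text names all 9 genes, up to 4 called genes of each list with the largest change, and the 3 genes most like each member over labels (of those reaching 50 CPM, with 1 CPM added before the log). Rab11a and Tg are named outside these rules. A few genes that these rules name are not reported here. Alternatives were DESeq2 1.42.0 and its size factors, no filter, other sample sets, equal cell numbers, other cell minimums, Th1 with Th3, the title ranges and a replicate block. Totals without TMM, leaving out cells with a macrophage marker, macrophage markers without Mrc1, and the test of differences between labels were added after seeing the data.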

Additional observations from a re-analysis of the deposited data

Results flagged for a closer look

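The change under receptor blockade differed between Th1 and another label for 10 of 34 pairs of member and label tested, in a fit of both labels that tested the difference of the log2 changes (edgeR, adjusted over all genes of the fit). Of all genes, 11.9% differed in EC1, 11.1% in EC2, 6.23% in EC3, 13.7% in EC4, 13.3% in F and 0% in Th3. The difference is the change in the other label minus that in Th1. For Ctsl it was 0.63 ± 0.12 in EC1 (SE, adjusted p = 0.00188), 1.10 ± 0.28 in EC2 (adjusted p = 0.0248), 1.20 ± 0.24 in EC4 (adjusted p = 0.00256) and 0.51 ± 0.16 in F (adjusted p = 0.037). For Ctsb it was 0.66 ± 0.13 in EC1 (adjusted p = 0.0027) and 0.58 ± 0.18 in F (adjusted p = 0.0354). For Ctsd it was 0.77 ± 0.16 in EC1 (adjusted p = 0.00429), 1.26 ± 0.28 in EC2 (adjusted p = 0.0141) and 1.35 ± 0.25 in EC3 (adjusted p = 0.00421). For Lamp2 it was 1.12 ± 0.33 in EC2 (adjusted p = 0.0455). The differences in EC1, EC3 and EC4 were kept when each RW or aN1aN2 sample was left out and with library totals without TMM. Those of Ctsb and Ctsl in F were lost in 5 of 7 such alternatives each, and those of Ctsd, Ctsl and Lamp2 in EC2 in 2, 3 and 5 of 6.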

How the results depend on the processing

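The calls of Ctsb and Lamp1 in Th1 and of Ctsl in EC1, EC2, EC4 and F under receptor blockade were kept in every alternative run. The share of all genes called was not taken for the alternatives, so their counts of calls have none beside them. The 5 calls in Th1 became 2 to 6 when single samples were left out (3 without aN1aN2 1, 2 without aN1aN2 2). For Th1 under ligand blockade, 0 calls became 2 within the second title range, and 0 to 2 when samples were left out (2 without aJ1aJ2 1). Outside Th1, the 1 call under ligand blockade became 2 with no filter and 0 without cells with a macrophage marker. It stayed at 1 on leaving out any single sample but RW 3. Members in S were also called with the title range as a term, within the second range and without RW 3. In each of these RW 1 alone set the RW level in S and was assumed to vary like the others, so no count is given. Between the blockades in Th1, 2 calls became 1 to 3 (1 without aJ1aJ2 1, aN1aN2 1 or aN1aN2 2). Of the other genes of the pathway in Th1, 2 were called under ligand blockade, 1 with only the compared groups, 10 within the second range, and 0 to 7 on leaving out samples (0 without RW 2, aJ1aJ2 3 or aJ1aJ2 4, 1 without RW 1, 7 without aJ1aJ2 1). Directions turned only for values that were not called. Ctss in Th1 under ligand blockade was 0.65, -0.093 within the second range and -0.64 to 1.18 on leaving out samples, and under receptor blockade it was -1.58, and 0.12 with equal cell numbers, but it was called lower with no filter (-1.62) and without aN1aN2 3, when both remaining samples had 0 UMIs. Between the blockades in Th1, Ctsd was -0.25 to 0.030 and Lamp2 -0.10 to 0.0026 on leaving out samples. The causes were not tested. In the titles RW and aN1aN2 share the numbers 1 and 2, but the labels do not tie them to shared mice or days. The titles of RW 3 and aJ1aJ2 1 hold no such number, and theirs were given here. With these numbers as a replicate block, 5 members were called in Th1 and 11 pairs outside it, against 5 and 9. With medians, and with totals without Tg and globin, 9 of 9 members kept their highest label, and Lrp2 in Th1 was 59.5 CPM on the latter scale. Depth limits Ctsk outside F, where no sample had more than 8 of its UMIs in a label, and cell number limits M, which had too few cells to be tested in aN1aN2.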

Other observations

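In S, the label with Schwann cell markers, Ctsl was 334 CPM in RW 1 and 1029.6 in RW 3, against 783 and 812 in aJ1aJ2 3 and 4, so that the aJ1aJ2 samples lay between the RW samples. Ctsb was 498 and 328 CPM in RW 1 and RW 3, above 217 and 214 in aJ1aJ2 3 and 4. Macrophage markers moved with this, since over all samples of S the cells with a UMI of one were 7 of 62 in RW, holding 81 of 151 Ctsb UMIs, and 3 of 94 in aJ1aJ2, holding 3 of 63. These markers were few, with 12 UMIs in the 2 tested RW samples of S and 4 in the 2 of aJ1aJ2. Ctss had 0 UMIs in both groups there. The part of macrophage RNA was not tested. The other samples had fewer than 20 cells of S, and neither gene was called there under ligand blockade with both RW samples (log2 change 0.32 for Ctsl and -0.97 for Ctsb). With the title range as a term, where RW 1 alone sets the RW level, both were called (1.16, adjusted p = 0.00129, and -1.30, adjusted p = 0.00115, edgeR), as they were without RW 3 (1.22 and -1.24).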
